A study of Rattus norvegicus with 4 samples.

Results

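The genes described here are the nuclear-encoded genes of the mitochondrial respiratory chain and ATP synthase, followed across the cell classes of the rat ventral tegmental area. They were chosen by symbol (Nduf followed by a, b, c, s or v and a number, Uqcr, Cox followed by a number, Atp5, and Sdha to Sdhd). The rule took 98 of 32883 gene features, which carry 94 symbols because Cox6b1, Ndufa10l1, Ndufv3 and Uqcrb stand on 2 features each. Of the 98 features, 39 belong to complex I, 4 to complex II, 9 to complex III, 19 to complex IV and 16 to complex V, 10 are assembly factors or the ATP synthase inhibitor (Cox10, Cox11, Cox14 to Cox20 and Atp5if1), and 1 has a pseudogene symbol (Cox6c-ps1).

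Single-nucleus RNA-seq (10x 3′ v3) had been run on sorted nuclei of the ventral tegmental area, the midbrain region that holds many of the dopamine neurons of the reward system. The 4 libraries were Female 1, Female 2, Male 1 and Male 2, each pooled from 3 adult Sprague-Dawley rats of 90 to 120 days that had undergone no experiment. Nuclei had been stained with 7-AAD and collected by flow cytometry. No transgene, treatment or time point separates the groups, so sex is the only labelled factor between libraries, and single animals cannot be told apart within a pool.

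The respiratory chain passes electrons from NADH (complex I) and succinate (complex II) through complex III to oxygen at complex IV, and ATP synthase (complex V) uses the proton gradient that complexes I, III and IV build. Most subunits are encoded in the nucleus and imported, while a small set is encoded by the mitochondrial genome and transcribed inside the organelle. Neurons depend strongly on this pathway, and dopamine neurons of the midbrain are known for their sensitivity to inhibitors of complex I. Transcription of many of these genes is classically linked to the factors NRF1, GABP (an ETS factor), YY1 and Sp1.

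Promoters of the members are shown because many members moved together between classes. RefSeq (GRCr8) held a promoter of 300 bases (250 before the start site and 50 after) for 84 features, matched by symbol, of which 82 were distinct. The letters searched on both strands were GCATGCGC (NRF1), CCGGAAG (ETS), AAGATGGC (YY1) and GGGGCGGGG (Sp1). The NRF1 letters were in 12.2% of member promoters and in 3.11% of all 21851 promoters of that length of protein-coding genes. For the ETS letters the shares were 29.3% and 10.7%, for YY1 20.7% and 3.67%, and for Sp1 6.10% and 12.8%. The 4 printed promoters show the different arrangements, with motif matches in capitals, each read 5′ to 3′ on the gene's strand: Cox4i1 (chr19:65630133-65630432, plus strand) and Cox8a (chr1:213833574-213833873, minus strand) hold pairs of ETS matches and Cox8a a YY1 match, while Uqcrc1 (chr8:118467973-118468272, plus strand) and Atp5po (chr11:44657434-44657733, minus strand) hold NRF1 and YY1 matches, 2 overlapping NRF1 matches in Atp5po. A match is a description of the letters only.
Cox4i1: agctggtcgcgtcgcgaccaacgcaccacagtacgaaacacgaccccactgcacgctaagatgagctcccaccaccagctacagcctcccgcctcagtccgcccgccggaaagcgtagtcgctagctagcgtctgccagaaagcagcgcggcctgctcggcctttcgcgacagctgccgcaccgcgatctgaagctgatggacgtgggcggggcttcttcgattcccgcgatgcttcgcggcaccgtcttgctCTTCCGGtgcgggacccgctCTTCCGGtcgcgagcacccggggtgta
Cox8a: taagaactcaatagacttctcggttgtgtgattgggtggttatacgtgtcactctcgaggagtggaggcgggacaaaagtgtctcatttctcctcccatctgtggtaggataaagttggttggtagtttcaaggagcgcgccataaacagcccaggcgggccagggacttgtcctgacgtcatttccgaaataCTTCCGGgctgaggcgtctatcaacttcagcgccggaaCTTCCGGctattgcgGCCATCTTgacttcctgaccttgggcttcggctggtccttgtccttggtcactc
Uqcrc1: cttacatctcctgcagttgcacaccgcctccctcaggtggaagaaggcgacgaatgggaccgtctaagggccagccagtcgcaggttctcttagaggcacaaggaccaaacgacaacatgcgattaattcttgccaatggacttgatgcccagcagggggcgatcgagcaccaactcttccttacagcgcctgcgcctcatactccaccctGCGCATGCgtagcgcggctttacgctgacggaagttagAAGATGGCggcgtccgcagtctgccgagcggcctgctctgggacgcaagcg
Atp5po: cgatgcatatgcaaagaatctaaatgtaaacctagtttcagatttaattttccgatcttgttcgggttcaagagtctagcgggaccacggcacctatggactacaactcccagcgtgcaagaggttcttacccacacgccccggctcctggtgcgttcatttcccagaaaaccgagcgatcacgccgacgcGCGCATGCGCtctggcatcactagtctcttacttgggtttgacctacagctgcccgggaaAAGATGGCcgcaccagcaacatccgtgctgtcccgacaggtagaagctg

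After filtering, 20620 of 21606 barcodes were kept (3523 to 6564 per library, median depth 2381 to 3857 UMIs per nucleus). Nuclei were put in 8 classes by counts of defining genes: 288 dopamine nuclei (Th and Slc6a3), 92 nuclei with Slc26a7 and Gad2, 1131 GABA nuclei (Gad1), 1521 glutamate nuclei (Slc17a6), 8514 oligodendrocyte nuclei (Mog and Mobp), 1334 precursor nuclei (Pdgfra), 1852 astrocyte nuclei (Gja1 and Aqp4) and 925 microglia nuclei (Csf1r and C1qa). The summed level of 7 dopamine markers was 4067 to 5062 counts per 1000000 UMIs of a class sum (CPM) in the dopamine nuclei and 60.6 to 85.6 in the GABA nuclei. Oligodendrocyte markers reached 188 to 285 CPM in dopamine and 241 to 391 in GABA nuclei, against 26464 to 43430 in oligodendrocyte nuclei, so neuron classes held a low level of them. Glial classes also held markers of other classes. Microglia nuclei had 1180 to 1999 CPM of astrocyte and 530 to 868 CPM of oligodendrocyte markers. Precursor nuclei had 800 to 969 CPM of neuron markers. Any library pair shared 4 to 9 barcodes. Female 2 stood apart: its members' summed share, defined next, was the lowest of the 4 libraries in all 8 classes.

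Members gave 496168 UMIs, 0.596% of all UMIs in kept nuclei, and complex I and complex V gave the most (37.1% and 21.7% of the member UMIs). The most counted were Cox4i1 (21399 UMIs), Uqcrc2 (17816), Atp5f1c (17210), Atp5f1b (15788) and Ndufc2 (15498). These were followed by Ndufa4, Cox8a, Ndufs4, Uqcrh and Cox6c. No UMI was assigned to Cox6a1, to Cox8c or to 1 of the 2 Uqcrb features, and Ndufa1 of complex I had 1. The subunit forms known from heart and skeletal muscle had few UMIs: Cox7a1 had at most 5 UMIs in any class and library, Cox8b at most 3 and Cox6a2 at most 10, the last in astrocytes of Male 2. With no UMI for its paralog Cox6a1, the Cox6a2 count does not show which of these forms is used. Many of these genes have near-identical copies in the genome, so single values depend on how reads were assigned, most of all for the 4 symbols with 2 features. A filter on low counts left 85 of the 98 features for testing, and those below it were not tested.

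The neurons other than dopamine neurons gave the highest share of their UMIs to the respiratory chain genes, and dopamine nuclei gave less than these. The measure is each nucleus's percent of UMIs from members, averaged with equal weight over nuclei of at least 2000 UMIs in each library. This is the value expected after thinning to 2000 UMIs, taken from the full counts, so it does not match depth between classes. In Female 1, Female 2, Male 1 and Male 2, dopamine nuclei gave 0.583%, 0.441%, 0.596% and 0.529% (mean 0.537% ± 0.0704, SD, n = 4 libraries). GABA nuclei gave 0.823%, 0.576%, 0.885% and 0.880% (0.791% ± 0.146). Glutamate nuclei gave 0.740%, 0.606%, 0.852% and 0.723% (0.730% ± 0.101).

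Nuclei with Slc26a7 and Gad2 had the highest mean of the 8 classes, with 0.866%, 0.623%, 1.13% and 0.843% (0.866% ± 0.209), although Male 1 held only 11 of these nuclei. Among glia, astrocytes had 0.532% ± 0.0656, oligodendrocytes 0.502% ± 0.121, precursors 0.456% ± 0.0851 and microglia 0.361% ± 0.0249. Within each library, dopamine nuclei were below GABA, glutamate and Slc26a7 nuclei in 4 of 4 libraries, with mean ratios of 0.687 (range 0.602 to 0.766), 0.737 (0.699 to 0.789) and 0.634 (0.526 to 0.708). The library ranges of dopamine and GABA nuclei overlapped, because Female 2 GABA nuclei were as low as dopamine nuclei of other libraries, whereas those of dopamine and glutamate nuclei did not. Against glia, dopamine nuclei were above microglia (ratio 1.49) and precursors (1.19) in 4 of 4 libraries, and above oligodendrocytes (1.10) and astrocytes (1.01, range 0.992 to 1.03) in 3 of 4. The order was less clear in unthinned sums over all nuclei of a class. There, dopamine nuclei were above microglia in 4 of 4 libraries, precursors in 3, oligodendrocytes in 2 (ratio 1.03) and astrocytes in 1 (0.961). Precursors were below oligodendrocytes in 4 of 4. These shares describe a score over chosen genes and carry no test.

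**Figure D1:**
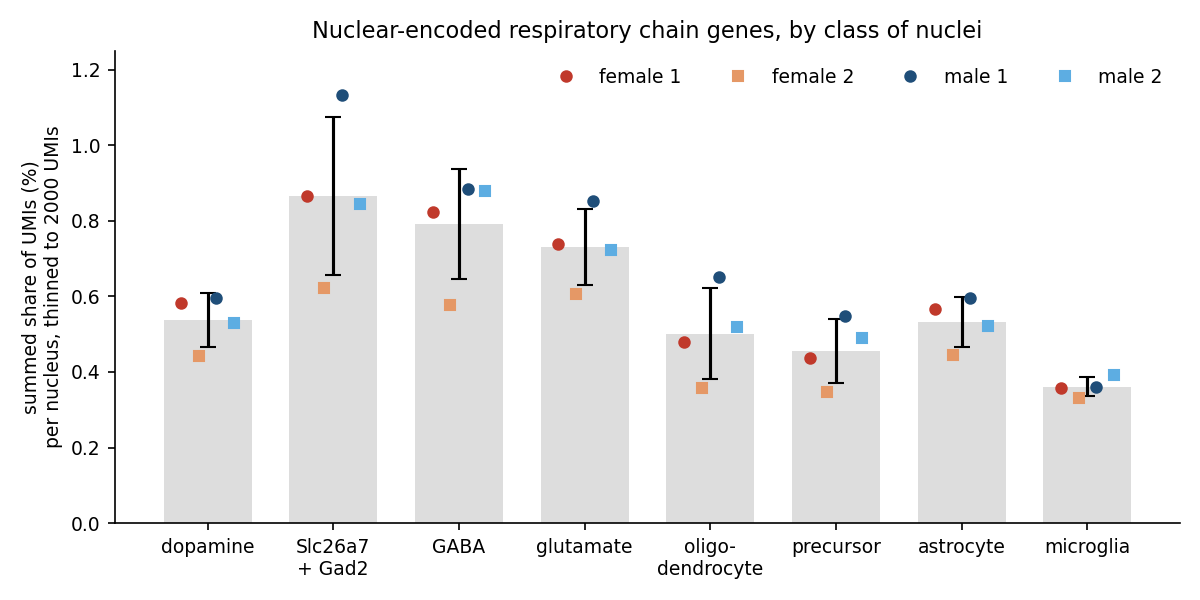
Summed share of UMIs from the 98 member features (percent, y axis) in each class of nuclei (x axis). Values are those expected after thinning to 2000 UMIs per nucleus, the mean share of nuclei of at least that depth. Points are the 4 libraries, bars the mean and whiskers the SD. Dopamine nuclei (mean 0.537%) lie below the other 3 neuron classes (0.730% to 0.866%), and astrocytes are at 0.532% here. Astrocytes were lower than dopamine nuclei in 4 of 4 libraries among nuclei of 3000 to 8000 UMIs (0.492% against 0.619%). In unthinned sums they were higher in 3 of 4 (0.530% against 0.507%).

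The share fell with depth in most classes and libraries, and averaging over nuclei does not remove this, so the classes were also compared within ranges of depth. In astrocytes of Male 2, for example, the share was 1.10% at 500 to 1000 UMIs and 0.375% at 8000 or more. Between 4000 and 8000 UMIs, dopamine nuclei had 0.692%, 0.492%, 0.748% and 0.554% in Female 1, Female 2, Male 1 and Male 2, and GABA nuclei 0.872%, 0.589%, 0.950% and 0.870%. At 8000 UMIs or more, dopamine nuclei had 0.471%, 0.410%, 0.519% and 0.497%, against 0.738%, 0.551%, 0.807% and 0.776% in GABA nuclei. Dopamine was lower in every library at both depths. Among nuclei of 3000 to 8000 UMIs the mean ratio of dopamine to GABA nuclei was 0.751 (0.617 to 0.826). In that window dopamine nuclei were above all 4 glial classes in 4 of 4 libraries, with ratios of 1.15 to 1.36 to astrocytes and mean ratios of 1.31 to oligodendrocytes, 1.51 to precursors and 1.63 to microglia, the last on 5 to 14 microglia nuclei per library. The count per nucleus was also lower: a dopamine nucleus held a median of 45, 38, 60.5 and 40.5 member UMIs in the 4 libraries, and a GABA nucleus 56, 41, 65.5 and 50.

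**Figure D2:**
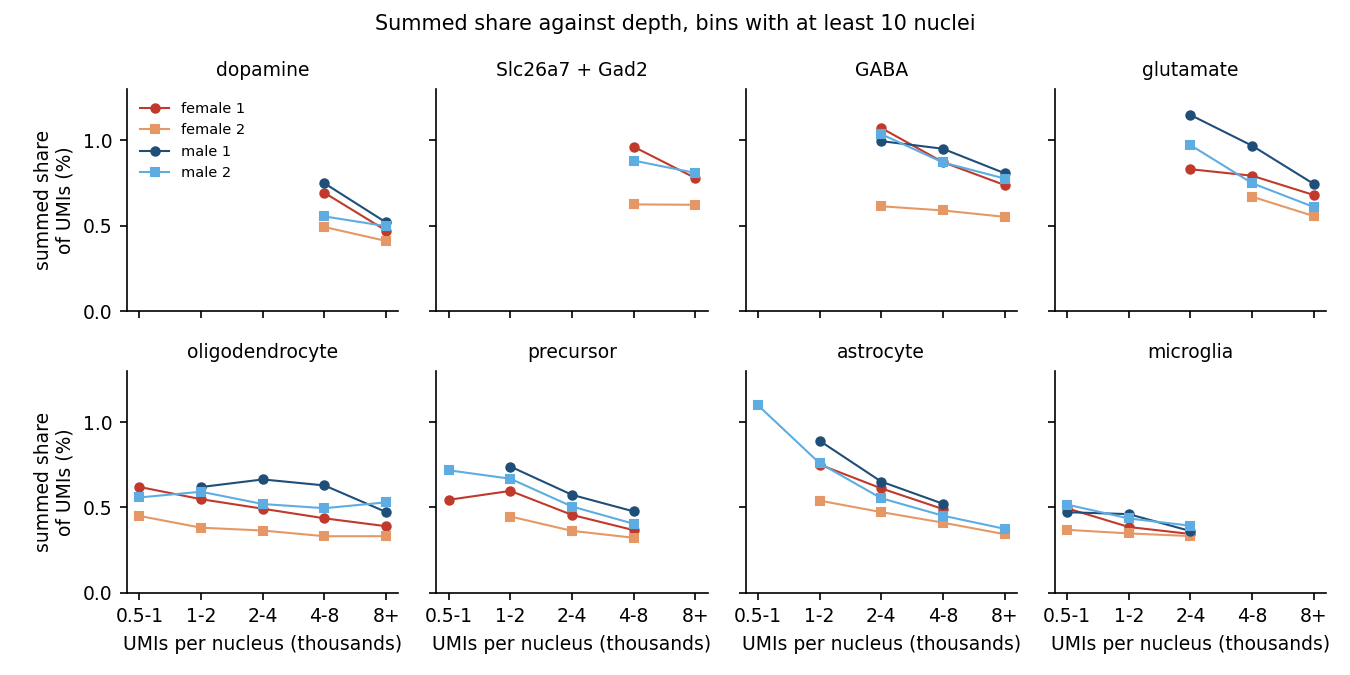
Summed share of member UMIs (percent, y axis) against UMIs per nucleus (x axis, in units of 1000), 1 panel per class and 1 line per library, for bins of at least 10 nuclei. In dopamine nuclei both depth bins lie below those of GABA nuclei in the same library.

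Ribosomal protein genes and mitochondrially encoded genes were followed beside the members. Ribosomal protein genes took 0.264% of UMIs in dopamine, 0.302% in GABA, 0.277% in glutamate and 0.164% in astrocyte nuclei (same measure, mean of 4 libraries). Female 2 was also lowest for them in all 8 classes. Across the 32 library and class sums, the member and ribosomal shares had a Spearman rho of 0.606 (Pearson r 0.615), and over the 8 classes within a library rho was 0.786, 0.595, 0.762 and 0.048 in Female 1, Female 2, Male 1 and Male 2. Mitochondrially encoded genes took 0.0886% in dopamine, 0.111% in GABA, 0.101% in glutamate and 0.186% in oligodendrocyte nuclei, which were highest. The dopamine mean was below GABA, but in Female 2 dopamine nuclei (0.0898%) were above GABA nuclei (0.0774%). The rho of the mitochondrially encoded share with the member share was -0.070 over the 32 sums and -0.738, -0.619, -0.452 and -0.571 within the 4 libraries, negative in each. These are descriptions over sums that share libraries. The part of these differences in the member shares was not tested.

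Dopamine nuclei had lower levels than GABA nuclei for most respiratory chain genes of every complex. Of the 85 tested members, 58 were lower and 1 was higher, where 15.5% of all 12332 genes were lower and 13.3% higher, 28.8% in either direction (edgeR quasi-likelihood test on class sums with library as a block, adjusted p under 0.05). The median log2 fold change of the members was -0.51, against -0.04 for all genes, 83 of 85 were negative and 71 were lower in all 4 libraries. Library is a block, so these tests rest on how class differences vary over the 4 pools, with a spread estimate shared by all 8 classes. They do not measure the spread between animals.

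In complex I, which takes electrons from NADH, 26 of 36 tested features were lower in dopamine nuclei. The accessory subunit Ndufb9 was 41.7, 40.0, 63.2 and 46.9 CPM in dopamine nuclei of Female 1, Female 2, Male 1 and Male 2, and 115, 80.2, 117 and 150 in GABA nuclei. Every GABA value exceeded every dopamine value, and the log2 fold change was -1.19 ± 0.15 (SE). Ndufs3, a core subunit, differed by -0.86 ± 0.15 (37.5 against 70.9 CPM). Ndufs4, an accessory subunit whose loss causes Leigh-like disease, was not called: it had 161, 130, 145 and 143 CPM in dopamine and 159, 139, 152 and 157 in GABA nuclei (-0.01 ± 0.11). The difference was thus not shared by every abundant member of the complex.

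Complex II, which also works in the TCA cycle, had 3 of 4 genes lower. Sdha, the flavoprotein subunit, was 51.8, 51.1, 48.4 and 55.2 CPM in dopamine nuclei and 80.5, 74.3, 86.9 and 76.2 in GABA nuclei, without overlap (-0.57 ± 0.12). The membrane anchor subunits Sdhc and Sdhd differed by -0.38 ± 0.14 and -0.56 ± 0.18, and the iron-sulfur subunit Sdhb by -0.25 ± 0.14, which was not called.

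In complex III, 7 of 8 features were lower. The hinge subunit Uqcrh was 90.6, 98.0, 109 and 88.3 CPM in dopamine nuclei and 179, 140, 182 and 169 in GABA nuclei (-0.74 ± 0.11), again with no overlap. The core subunit Uqcrc2 showed a smaller difference, 192 against 246 CPM (-0.30 ± 0.10).

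In complex IV, the oxygen-reducing cytochrome c oxidase, 9 of 12 tested features were lower. Cox4i1, the main form of subunit 4, was 216, 189, 202 and 223 CPM in dopamine nuclei and 371, 248, 398 and 440 in GABA nuclei (-0.74 ± 0.10). Glutamate nuclei had 345, 295, 393 and 349, and Slc26a7 nuclei 402, 380, 416 and 474. The dopamine range lay below that of each other neuron class. Cox5a (-0.99 ± 0.19) and Cox7b (-0.95 ± 0.12) had the largest called differences in the complex.

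In ATP synthase, 11 of 15 tested features were lower. The catalytic subunit beta, Atp5f1b, was 148, 112, 165 and 124 CPM in dopamine nuclei and 289, 177, 330 and 299 in GABA nuclei (-0.93 ± 0.11), with no overlap. Subunit alpha, Atp5f1a, was 47.2 CPM in dopamine and 100.5 in GABA nuclei (-1.02 ± 0.16). Of the genes for the c-ring, Atp5mc3 differed by -0.93 ± 0.12, Atp5mc2 by -0.72 ± 0.15 and Atp5mc1 by -0.67 ± 0.11. Subunit gamma, Atp5f1c, changed less (-0.31 ± 0.10), and its dopamine value in Male 1 (139 CPM) lay far below the other libraries (190 to 194).

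Of the 10 assembly or inhibitor genes, 2 were lower and 1 was higher in dopamine nuclei, beside 15.5% and 13.3% of all genes. Of the 10, 8 had a negative log2 fold change and the median was -0.37. Cox14, Cox15, Cox19 and Cox20, which were not called, averaged at most 11.3 CPM in dopamine nuclei. Cox16, which takes part in building complex IV, was the member higher in dopamine nuclei, with 112, 108, 95.5 and 108 CPM against 80.9, 75.5, 76.9 and 74.0 in GABA nuclei (+0.50 ± 0.12). This call was lost after thinning and in nuclei of 3000 to 8000 UMIs. Atp5if1, the inhibitor of ATP synthase, was lower (-0.44 ± 0.11), as was the copper chaperone Cox17 (-0.51 ± 0.17). By summed share, dopamine nuclei had 0.634 to 0.744 times the GABA value in the 5 complexes and 0.897 times in the assembly genes, each below GABA in 4 of 4 libraries.

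Fewer of the 58 lower calls remained in sums of lower depth. Thinning all nuclei to 2000 UMIs kept 23 of them and the window of 3000 to 8000 UMIs kept 16. These settings called 7.94% and 7.25% of all genes lower. The calls that held under all 13 alternatives were 13, named after their values were seen: Ndufa9, Ndufa12, Ndufb5, Ndufb9, Ndufs3 and Ndufv2 of complex I, Uqcrh of complex III, Cox4i1 and Cox7b of complex IV, and Atp5f1b, Atp5mc1, Atp5mc3 and Atp5po of ATP synthase. The member median was -0.52 after thinning, close to the value before it.

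**Figure D3:**
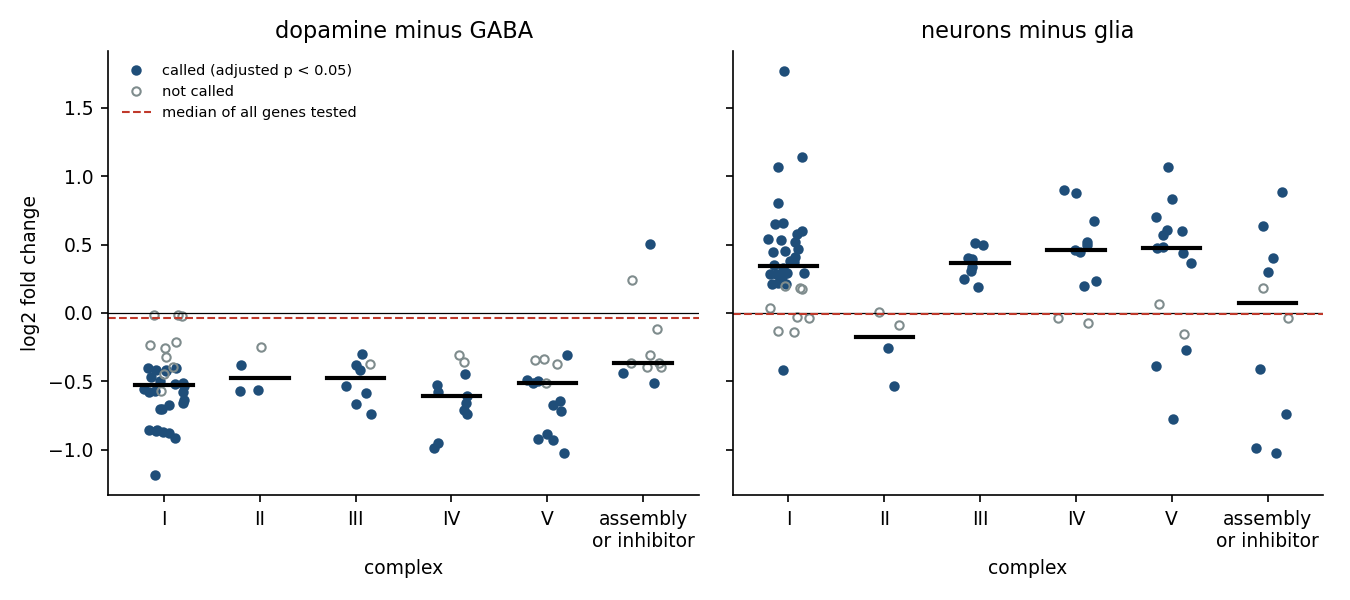
Log2 fold change of each tested member (y axis) by complex (x axis) for dopamine minus GABA nuclei (left) and neurons minus glia (right), filled where called. Black bars are group medians, the dashed line the median of all genes, and Cox6b2, near 0 in most classes, is left out. Most members lie below the dashed line on the left and most above it on the right.

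Against glutamate nuclei, 43 of 85 members were lower in dopamine nuclei and 1, Cox16, was higher (background 13.1% lower and 10.8% higher, 23.9% in all; member median -0.38, all genes -0.05). Lower members were 18 of complex I, 1 of complex II, 4 of complex III, 8 of complex IV, 9 of ATP synthase and 3 assembly genes. Ndufb9 (-0.93 ± 0.15), Ndufb7 (-0.87 ± 0.17), Ndufb4 (-0.86 ± 0.20), Atp5f1a (-0.86 ± 0.16), Cox7b (-0.81 ± 0.12) and the heme A synthase Cox15 (-0.93 ± 0.32) led them. Thinning kept 11 of the 43 and the depth window 10, where these settings called 6.69% and 5.36% of all genes lower. The dopamine sums are the same as in the comparison with GABA nuclei, so the comparisons are not independent of each other.

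Against nuclei with Slc26a7 and Gad2, 33 members were lower and 0 higher (also 0 higher with DESeq2, and 0 with edgeR at an unadjusted p under 0.05; background 5.76% lower and 8.83% higher, 14.6% in all; member median -0.61, all genes 0.09). Atp5mc3 was 77.7, 52.4, 112 and 97.9 CPM in dopamine and 157, 93.7, 334 and 262 in Slc26a7 nuclei (-1.20 ± 0.17). It was lower in each library, although Male 1 dopamine nuclei exceeded Female 2 Slc26a7 nuclei. Atp5f1a (-1.39 ± 0.24), Cox19 (-1.33 ± 0.39), Cox5a (-1.27 ± 0.28), Ndufb7 (-1.26 ± 0.26) and Ndufs8 (-1.24 ± 0.34) differed most. Slc26a7 sums rest on 11 to 32 nuclei per library and held 979 to 1420 CPM of dopamine markers. Only 2 of the 33 calls remained after thinning and 6 in the depth window, where 1.78% and 1.86% of all genes were lower. Atp5mc3 alone held under all 13 alternatives.

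Across the 84 members with at least 500 UMIs, the highest mean CPM was in Slc26a7 nuclei for 46, in GABA nuclei for 16, in astrocytes for 7 and in oligodendrocytes for 6. Dopamine nuclei were highest for 1, Cox16. Microglia were lowest for 53 members and dopamine nuclei for 10.

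**Figure D4:**
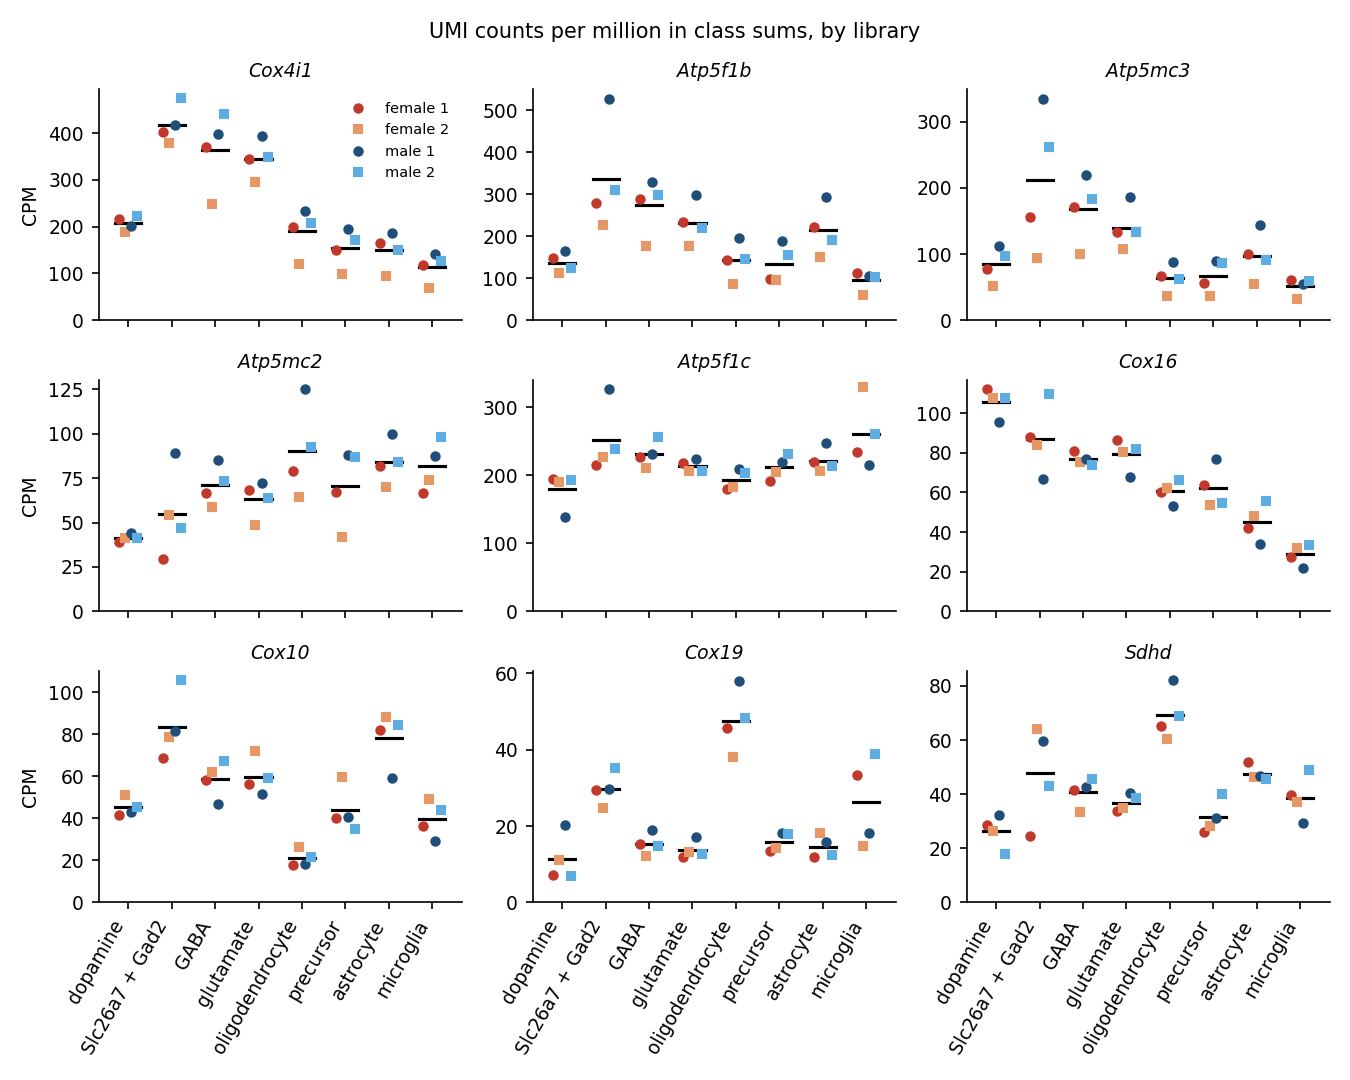
CPM in class sums (y axis, linear from 0) for 9 members across the 8 classes (x axis). Points are libraries and black bars their means. Cox4i1, Atp5f1b and Atp5mc3 are high in the neuron classes other than dopamine, Atp5mc2 and Sdhd are not, Cox16 is highest in dopamine nuclei, and Cox19 and Cox10 run in opposite directions between oligodendrocytes and astrocytes.

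Neurons as a whole had higher levels than glia for most members, while some subunits were lower. Of the 10 assembly or inhibitor genes, 4 were higher and 4 lower. In the mean of the 4 neuron classes against the 4 glial classes, 58 of 85 members were higher and 11 lower (background 37.3% higher and 34.8% lower, 72% in all), with a member median of 0.34 against -0.01 for all genes. Scaling by library totals moved the median of all genes to 0.23 and that of the members to 0.57, with 68 higher and 6 lower members beside 46.6% and 24.7% of all genes. Thinning kept 38 of the 58 higher calls and 7 of the 11 lower ones, where 30.3% of all genes were higher and 27.2% lower. Neuron nuclei were deeper than glial nuclei. Among nuclei of 3000 to 8000 UMIs, 50 of the 58 higher calls remained and the member median was 0.80 (all genes 0.13).

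The higher members came from complex I (27 of 36, 1 lower), complex III (8 of 8), complex IV (9 of 12, 1 lower) and ATP synthase (10 of 15, 3 lower). Of the 4 complex II genes, 2 were lower, Sdha (-0.26 ± 0.07) and Sdhd, and 0 higher (edgeR, also at an unadjusted p under 0.05), while Sdhb (-0.09 ± 0.08) and Sdhc (0.01 ± 0.09) were not called. By summed share, complex II was higher in GABA nuclei than in oligodendrocytes in 4 of 4 libraries (ratio 1.15), and the class means of neurons (0.0215% to 0.0303%) and glia (0.0192% to 0.0318%) overlapped. Ndufc1, an accessory subunit of complex I, had the largest difference (+1.77 ± 0.13): neuron class means ran from 51.8 to 81.8 CPM and glial ones from 13.6 to 21.4, without overlap. Cox4i1 differed by +0.90 ± 0.06 (334 against 152 CPM) and Atp5if1 by +0.89 ± 0.07.

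Genes for the c-ring of ATP synthase encode the same mature protein with different import sequences, and they did not move together. Atp5mc1 was higher in neurons (+1.07 ± 0.07; 136 against 54.0 CPM), as was Atp5mc3 (+0.84 ± 0.07), while Atp5mc2 was lower (-0.78 ± 0.08). For Atp5mc2, dopamine nuclei had 38.8, 41.4, 44.4 and 41.4 CPM, GABA nuclei 66.8, 58.7, 85.4 and 73.4, oligodendrocytes 79.0, 64.3, 125 and 92.8, and astrocytes 81.9, 70.2, 99.9 and 84.2.

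Sdhd was lower in neurons (-0.53 ± 0.10), with 65.0, 60.5, 82.2 and 68.9 CPM in oligodendrocytes, above all other classes except 1 Slc26a7 library. Of the factors that build complex IV, Cox20 (-1.03 ± 0.15), Cox15 (-0.99 ± 0.17) and Cox19 (-0.74 ± 0.13) were lower in neurons. Cox16 (+0.64 ± 0.09), Cox18 (+0.40 ± 0.11) and Cox10 (+0.30 ± 0.08) were higher. The lower calls of Sdha, Cox11, Atp5f1c and Ndufb4 were lost when libraries were scaled by their totals, and Ndufb4 changed sign after thinning and in the depth window. Under all 13 alternatives 35 of the higher calls held, and of the lower calls only Sdhd and Cox20 did.

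In the main fit, precursors had lower levels than mature oligodendrocytes for most members, and fewer were called lower with DESeq2 or library totals. Of 85, 53 were lower and 3 higher (background 32% lower and 30.3% higher, 62.3% in all; member median -0.37, all genes -0.06). Library totals moved the all-gene median to 0.15 and the member median to -0.15, with 22 lower and 8 higher members beside 22.9% and 36.9% of all genes. DESeq2 called 33 lower and 5 higher beside 24.8% and 34.2% of all genes (member median -0.23, all genes 0.08). Of the 53 lower calls, 17 held under all 13 alternatives. Cox19, a copper-handling assembly factor of complex IV, was 13.4, 14.2, 18.0 and 17.9 CPM in precursors and 45.7, 37.9, 58.0 and 48.3 in oligodendrocytes (-1.78 ± 0.17). Among the other leading genes were Sdhd (-1.34 ± 0.13), Cox17 (-1.16 ± 0.15), Ndufa6 (-1.07 ± 0.16) and Ndufs7 (29.9 against 51.4 CPM).

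Higher in precursors were Cox10, the heme A farnesyltransferase (40.3, 59.5, 40.9 and 34.9 against 17.7, 26.5, 18.5 and 21.4 CPM; +0.82 ± 0.14), Ndufa4 (+0.25 ± 0.09), named for complex I and counted there here, though now placed in complex IV, and Cox6b2. Cox6b2, known as a testis form of a complex IV subunit, was 6.27, 8.51, 14.4 and 11.6 CPM in precursors and 0.184, 0, 0.206 and 0 in oligodendrocytes. It had no UMI in dopamine or Slc26a7 nuclei. In neurons against glia it was called lower (-2.97 ± 0.96, 0.392 against 4.55 CPM). Microglia add to that glial mean beside precursors, while astrocytes averaged 0.564 CPM. Cox6b2 was near 0 in most classes and could pass the filter on low counts only through classes where it was high. Its calls therefore add no support. The call in precursors was lost after thinning and in the depth window, and Cox10 alone among the 3 held under all 13 alternatives.

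Astrocytes and oligodendrocytes differed gene by gene with no common direction. In astrocytes 19 members were higher and 29 lower (background 32.3% higher and 33.8% lower, 66.1% in all), and the member median of -0.07 (all genes -0.05) became 0.06 with DESeq2 and 0.02 with library totals. The share of members called lower was near that of all genes, and the share called higher was below it. Cox10 was 81.9, 88.3, 59.0 and 84.5 CPM in astrocytes, above all oligodendrocyte values (+1.82 ± 0.11). The complex I core subunits Ndufs3 (+1.22 ± 0.11) and Ndufs1 (+0.86 ± 0.11), the accessory subunit Ndufb3 (+0.90 ± 0.11), Atp5pb of the ATP synthase stalk (+0.98 ± 0.19) and Cox11 (+0.82 ± 0.12) were also higher. Lower in astrocytes were Ndufs6 (-1.86 ± 0.26), Cox19 (-1.79 ± 0.15), Ndufb11 (41.3 against 77.2 CPM), Cox17 (-0.96 ± 0.13), Cox14 (-0.86 ± 0.25) and Ndufv3 (-0.72 ± 0.18 and -0.38 ± 0.12 on its 2 features). Members of 1 complex lay on both sides: 8 of complex I were higher and 13 lower. Without Female 2, the library that stood apart, 18 were higher and 32 lower here, 47 were lower in precursors, 53 were higher in neurons than in glia, and 57, 38 and 31 were lower in dopamine than in GABA, glutamate and Slc26a7 nuclei. In the same order, the shares of all genes were 31.3% and 31.4%, 29.0%, 35.3%, and 13.1%, 11.2% and 4.63%.

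Related pathways were read from gene lists, some of them mitochondrial and some, such as glycolysis, cytosolic. In dopamine against GABA nuclei, 10 of 16 TCA cycle genes, 9 of 15 glycolysis genes and 7 of 9 carriers and channels were lower. With edgeR 0 genes of these 3 lists were higher, also at an unadjusted p under 0.05. In the same comparison 5 of 59 ribosomal protein genes and 1 of 11 mitochondrially encoded genes were lower. Pdha1 of pyruvate dehydrogenase (-0.96 ± 0.18), the malate dehydrogenase Mdh2 (-0.79 ± 0.14) and Suclg1 (-0.60 ± 0.13) led the TCA list. The aldolases Aldoc (-1.33 ± 0.13) and Aldoa (-0.85 ± 0.11) and the lactate dehydrogenase Ldhb (-1.09 ± 0.13) led glycolysis. The ADP/ATP carriers Slc25a5 (-1.32 ± 0.16) and Slc25a4 (-0.70 ± 0.10) and the phosphate carrier Slc25a3 (-0.97 ± 0.11) supply the substrates of ATP synthase. Of 32 tested assembly factors outside the members, 5 were lower, among them Ndufaf3, Coa3 and Ttc19, and 2 were higher, Ndufaf6 (+0.50 ± 0.18) and Pet100 (+0.91 ± 0.34). Of all genes, 15.5% were lower and 13.3% higher in this comparison, so the count of lower assembly factors was near that share.

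Of 12 tested regulators of mitochondrial gene transcription, 3 were lower in dopamine than in GABA nuclei, beside 15.5% of all genes. Ppargc1a, the coactivator PGC-1alpha, was 12.9, 15.2, 22.9 and 16.5 CPM in dopamine nuclei and 142, 125, 99.7 and 113 in GABA nuclei (-2.76 ± 0.20, edgeR adjusted p = 7.2e-16). Every other neuron class lay far above the dopamine range: glutamate nuclei had 94.0 to 107 and Slc26a7 nuclei 93.7 to 156 CPM. Astrocytes had the highest values, 354, 350, 345 and 383, precursors 68.9 to 83.1, oligodendrocytes 1.23 to 4.60, and microglia no UMI in any library. The nuclear receptor Esrrg was 41.7, 42.8, 47.1 and 44.1 CPM in dopamine and 147, 130, 105 and 152 in GABA nuclei (-1.54 ± 0.18), and Ppargc1b differed by -0.74 ± 0.18. In neurons against glia, 4 of the 12 regulators were higher and 6 lower, beside 37.3% and 34.8% of all genes. Esrrg (+1.93 ± 0.13), Ppargc1b (+1.87 ± 0.14), Esrra and Ppargc1a were higher, the last as a mean of log levels, since its mean CPM was 92.4 in neurons and 108 in glia. Nrf1 was higher in glia (53.3 CPM in neurons, 110 in glia; -1.28 ± 0.09), as were Gabpa (-1.08 ± 0.15) and Yy1 (-0.71 ± 0.10).

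**Figure D5:**
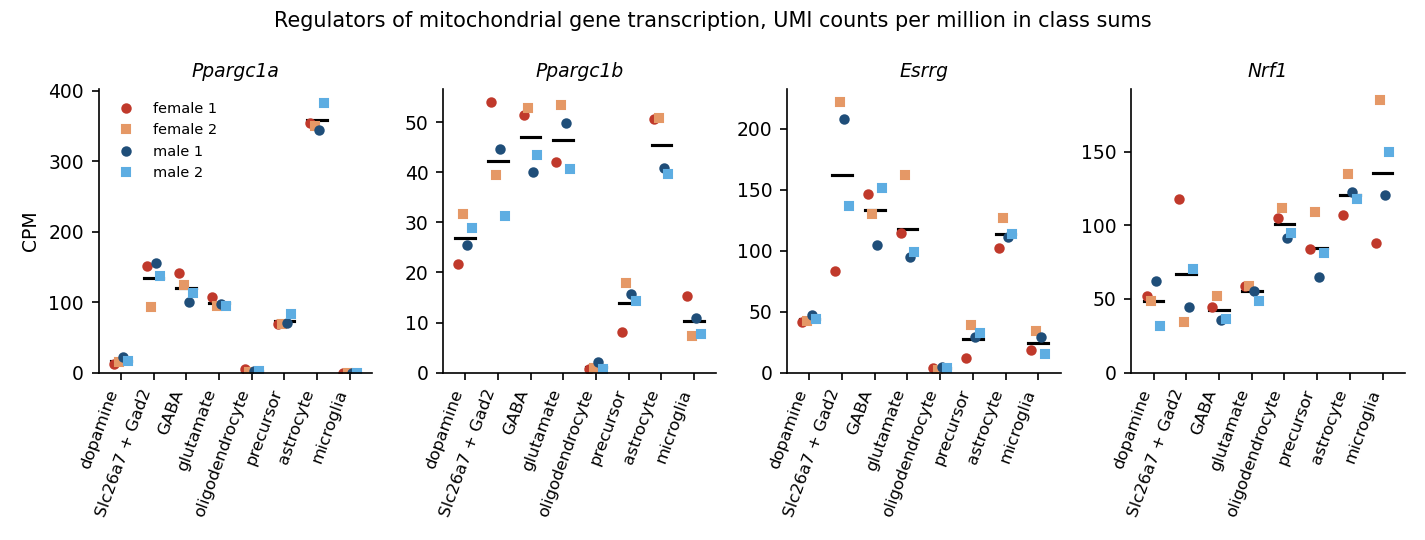
CPM in class sums (y axis, linear from 0, a different scale in each panel) for 4 regulators across the 8 classes (x axis), points for libraries and bars for means. Ppargc1a is at 12.9 to 22.9 CPM in dopamine nuclei, 93.7 to 156 in the other neuron classes and 345 to 383 in astrocytes.

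In neurons against glia, 13 of 15 glycolysis genes were higher and 1, Aldoc, was lower, and 12 of 16 TCA cycle genes were higher and 2, Suclg2 (-1.97 ± 0.09) and Idh2 (-1.08 ± 0.08), were lower. All 11 tested mitochondrially encoded genes were lower in neurons (median -0.96). Of 32 tested assembly factors outside the members, 14 were higher and 4 lower. Of all genes, 37.3% were higher and 34.8% lower in neurons. In astrocytes against oligodendrocytes, 13 of 15 glycolysis and 13 of 16 TCA cycle genes were higher and 0 were lower with edgeR, also at an unadjusted p under 0.05. There, 48 of 59 ribosomal protein genes were lower, where 32.3% of all genes were higher and 33.8% lower. The members lay on both sides as described.

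The sexes were compared with 2 libraries each, within every class and over all nuclei. No member was called in any of the 9 edgeR fits or with DESeq2, where 0.0312% of all 16036 genes were called over all nuclei. Within classes the share of genes called was 0.0681% in dopamine, 0.021% in Slc26a7, 0.0937% in GABA, 0.0556% in glutamate, 0.0514% in oligodendrocyte, 0.125% in precursor, 0.0981% in astrocyte and 0.0872% in microglia nuclei. At an unadjusted p under 0.05, 5 of 90 members passed over all nuclei and 3 to 36 within a class, where 4.31% of all genes passed over all nuclei and 3.28% to 9.07% within a class. The 36 were among 84 members tested in oligodendrocytes, beside that 9.07%. The member median was lower in females in all 9 fits, from -0.17 in dopamine to -0.52 in oligodendrocyte nuclei, beside all-gene medians between 0.00 and 0.01. Female 2 was the lowest library in every class, and without Female 1, which leaves Female 2 alone against the males and assumes that it varies as they do, 116 member and fit pairs were called. Without Male 2, 1 pair was called. A test of whether each of the 6 class differences depended on sex called 0 members (edgeR), with 1 to 9 of 85 members at an unadjusted p under 0.05, beside 503 to 826 of 12332 genes.

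Motif matches were set beside the comparison of dopamine and GABA nuclei as a description. The NRF1 letters were in 10.2% of 49 promoters of members lower in dopamine nuclei (5) and 16% of 25 promoters of those not called (4), the ETS letters in 30.6% and 28%, the YY1 letters in 16.3% and 32%, and the Sp1 letters in 4.08% and 12%. These shares rest on few promoters and carry no test. Of the printed promoters, Cox4i1, Cox8a and Atp5po belong to members called lower and Uqcrc1 (-0.38 ± 0.15) to one that was not.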

How the data were processed

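Values were raw UMI counts per gene and barcode, which the authors deposited for each of the 4 libraries. Per the submitters' processing notes they were made with Cell Ranger on rn6, and the file headers name software version 3.0.2. Neither the annotation nor the counting of intronic reads is named in the sources used here. Barcodes with at least 200 genes and at most 5% mitochondrial UMIs were kept, and the highest Scrublet scores (scanpy 1.11.5; 0.8% per 1000 barcodes) were removed as doublets: 276, 212, 105 and 387 in Female 1, Female 2, Male 1 and Male 2. Total UMIs were 21513908, 21853615, 19714338 and 25824289.

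Classes required at least 2 UMIs each of Th and Slc6a3; 2 of Slc26a7 with 1 of Gad2; 2 of Gad1; 2 of Slc17a6 with 0 of Gad1; 1 each of Mog and Mobp; 2 of Pdgfra; 1 each of Gja1 and Aqp4; or 1 each of Csf1r and C1qa. Nuclei under conflicting rules (154) or under none (4809) were left out of class comparisons. Slc26a7 with Gad2 is a rule, not a named cell type. Shares averaged per nucleus, the values expected after thinning, left out nuclei under 2000 UMIs, among them 748 of 925 microglia. Counts were drawn at random only for the thinned sums that were tested.

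Counts summed per library and class (32 sums) were tested in 1 edgeR 4.0.16 quasi-likelihood fit (R 4.3.3; TMM, filterByExpr, library as block), with Benjamini-Hochberg adjustment over all genes tested and a threshold of 0.05. Sexes were compared in 9 fits without a block. The neuron and glia contrast averages log levels over 4 classes each, so a CPM mean can differ from it. DESeq2 1.42.0, library totals, other filters and class rules, no doublet removal, depth restriction and leaving out each library were alternatives. The models were tested on simulated counts.

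Named members were the 10 most counted, up to 6 called per contrast and direction with at least 10 CPM and 1 direction in all 4 libraries, members called between sexes, paralog sets, complex II, undetected members, and up to 3 genes per related list and direction. The members and lists were chosen with earlier results of these data known. 1 member that the naming rule takes is not reported here.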

Additional observations from a re-analysis of the deposited data

Results flagged for a closer look

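2 single values lay far from their group by Dixon's ratio (gap to the nearest library over the whole range, above its 95% critical value). Chance gives about 1 such case in 20 groups, and 2 of 88 groups of libraries did so. Atp5f1c in dopamine nuclei was 139 CPM in Male 1 and 194, 190 and 193 in Female 1, Female 2 and Male 2 (ratio 0.932). Ndufc2 in microglia was 135 CPM in Male 1 and 82.1, 78.8 and 80.1 in the same 3 other libraries (ratio 0.943).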

How the results depend on the processing

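For dopamine against GABA nuclei the 59 calls became 31 with no replicate block, 23 after thinning to 2000 UMIs and 17 in nuclei of 3000 to 8000 UMIs. The share of all genes called went from 28.8% to 23.0%, 14.1% and 13.8%. Against glutamate nuclei 44 became 19, 11 and 10 under the same settings, and against Slc26a7 nuclei 33 became 18, 2 and 6, 16 with stricter class rules, and 18 to 31 with 1 library left out, lowest without Male 1. Of all genes, 23.9% became 18.8%, 11.6% and 10.4% against glutamate nuclei. Against Slc26a7 nuclei 14.6% became 13.9%, 5.97% and 4.86%, 13.6% with stricter class rules and 10.6% to 12.0% with 1 library left out. Neurons against glia gave 45 after thinning, beside 57.4% of all genes. Precursors against oligodendrocytes gave 30 with library totals, 31 with no replicate block and 37 after thinning, beside 59.8%, 57.4% and 58.2% of all genes. Fewer nuclei and UMIs enter the thinned and window sums. Member calls between the sexes were 0, 28 with no filter on low counts, 59 with the replicate block and 0 to 116 with 1 library left out. Replicate numbers do not pair the libraries by their labels: 2 pairs only, with a correlation of deviations of 0.290 over 16036 genes. The dopamine share was 0.619% in the depth window, and the microglia share 0.400% in unthinned sums, 0.391% in the window and 0.391% with doublets kept. The sign reversed for Atp5mc1 in dopamine against Slc26a7 nuclei after thinning (0.11, adjusted p 0.958) and for Ndufb4 in neurons against glia after thinning (0.28) and in the window (0.048); the cause was not tested. Of 175 called pairs of a named gene and a contrast, 162 kept their call with DESeq2, 158 with library totals and 143 with no block, 112 of 168 after thinning and 109 of 171 in the window.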
